A study of Mus musculus with 9 samples.

Results

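The 8 genes described here are Il1rl1, Tmem251, Prl2c2, Prl2c3, Lcn2, Nes, Plet1 and Prune2, out of 16509 genes in the expression table of MC38 cells. They were chosen from the same measurements that are reported here: 4 of them because copper with cystine raised them, and 4 because copper with cystine lowered them while Cadict raised them. Their values are therefore given as a description, and no p-value is attached to them. MC38 is a mouse colon carcinoma line, and RNA was sequenced in 9 libraries from 3 groups of 3. Ctrl cells received the vehicle, which the sample labels name as DMSO and the study's text as PBS. Cu-Cys cells received copper with cystine, the oxidized dimer of cysteine. Cadict cells received a nanodrug in which copper and cystine are coordinated together, with glucose oxidase and a peptide that targets the EGF receptor added, so that Cadict shares copper and cystine with Cu-Cys. The dose and the time of treatment are not given in the sources used here for these libraries. The study's text describes its replicates as biological and its cell experiments as repeated independently, while the sample labels number the libraries without naming cultures.

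The 8 genes belong to different pathways. Il1rl1 encodes ST2, the receptor of the alarmin IL-33, and also a secreted form that acts as a decoy. Prl2c2 and Prl2c3 encode proliferins, secreted relatives of prolactin made by the placenta and by growing fibroblasts, and Tmem251 encodes a Golgi membrane protein needed to put the mannose-6-phosphate tag on lysosomal enzymes. Lcn2 encodes lipocalin 2, a secreted protein that binds iron-loaded siderophores and rises in inflammation. Nes encodes nestin, an intermediate filament protein of progenitor cells, Plet1 encodes a surface protein of placental and epithelial progenitors, and Prune2 encodes a large cytoplasmic protein with a BCH domain.

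The libraries held between 17905769 and 18293060 expected counts in total, where an expected count is the number of reads that was assigned to a gene by estimation. Levels are given as CPM (counts relative to the scaled total of a library) after TMM scaling, a method that sets libraries against each other by the bulk of their genes. The TMM factors were 1.26 to 1.27 in Ctrl, 1.21 in Cu-Cys and 0.640 to 0.665 in Cadict, so the scaling moved the Cadict libraries most. With library totals in place of TMM, the median change over the tested genes on the log2 scale in Cadict against Ctrl moved from -0.13 to -1.08, and the share of called genes that were higher moved from 43.3% to 11.9%. In Cadict against Cu-Cys the median moved from -0.10 to -0.98, and the share of calls that were higher moved from 44.1% to 10.8%. Cadict replicate 2 differed more from the other Cadict libraries (chi-square per gene of 14.7 and 23.1) than they did from each other (3.63). Leaving it out moved the log2 fold changes of the members other than Prl2c3 by at most 0.20 in Cadict against Ctrl. Intestinal epithelial markers were close to absent in these cells. The 11 intestinal epithelial markers in the table summed to 4.84 to 6.89 TPM (a level per length of transcript, scaled to a common total) in Ctrl, 3.76 to 4.46 in Cu-Cys and 11.7 to 13.6 in Cadict. Lcn2 and Nes had this order on TPM too, whereas Plet1 and Prune2 had it in TMM-scaled counts but not on TPM. The leukocyte marker sum given below also had it. Epcam had no more than 4 counts in any library. The 2 tested markers were Krt19, a keratin gene, and Cdh1, the gene of E-cadherin, with log2 fold changes of 3.34 and 1.39 in Cadict against Ctrl and of -0.33 (adjusted p = 0.34) and -0.64 in Cu-Cys against Ctrl. Outside this list, the keratin gene Krt14 was read at a mean of 318 TPM in Ctrl, 238 in Cu-Cys and 116 in Cadict. Krt80 was read at 49.0, 37.7 and 16.3. With TMM the log2 fold changes of Krt14 and Krt80 were -0.28 and -0.24 in Cu-Cys against Ctrl. In Cadict against Ctrl they were -0.12 (adjusted p above 0.05) and -0.30, a smaller fall than on TPM. Krt5, Krt7, Krt15 and Krt17 had at most 4 counts in any library. The 15 mesenchymal markers summed to 3572 to 3730 TPM in Ctrl, 3029 to 3169 in Cu-Cys and 1318 to 1453 in Cadict. Most of this sum was Vim, at a mean of 2919 TPM in Ctrl, 2700 in Cu-Cys and 1175 in Cadict. With TMM the log2 fold change of Vim in Cadict against Ctrl was 0.0024. Of 12 tested mesenchymal markers, 1 was higher and 7 were lower in Cu-Cys than in Ctrl (adjusted p of 0.05 or less), where 22.6% and 22.4% of all genes tested were. The largest falls were in the collagen genes Col1a1 (-1.45, SE 0.11), Col3a1 (-1.32, SE 0.057) and Col5a1 (-1.07, SE 0.053). In Cadict against Ctrl, 4 of the 12 were higher and 6 lower, where 40.6% and 47.1% of all genes tested were. The 9 leukocyte markers in the table summed to 7.84 to 9.18 TPM in Ctrl, 4.81 to 6.13 in Cu-Cys and 15.5 to 18.7 in Cadict, with Ptprc, the pan-leukocyte marker, at no more than 4 counts. Most of this sum was Cd68, a lysosomal protein gene of macrophages and the 1 tested marker of that list, at a mean of 7.05 TPM in Ctrl, 4.95 in Cu-Cys and 15.9 in Cadict, with a log2 fold change of 2.49 in Cadict against Ctrl. The part of these marker levels in the results was not tested. In these bulk libraries, fewer cells that make a transcript and less of that transcript per cell cannot be told apart.

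All 8 members passed the filter on low counts and were among the 11949 genes tested. Of the 8, 4 were among the genes called higher in Cu-Cys than in Ctrl, where a call needs a 2-fold change with an adjusted p of 0.001 or less (0.167% of all genes tested were called). On the same terms 3 members were lower, against a background of 1.47%. In Cadict against Ctrl, 8 of 8 were called higher, where 20.7% of all genes were. In Cadict against Cu-Cys, 5 were called higher, where 18.6% of all genes were. Nothing is read from these counts, because the contrasts served to choose the members. With an adjusted p of 0.05 or less as the only limit, on both changes, 394 genes, or 3.3% of those tested, were lower with Cu-Cys and higher with Cadict, and 557, or 4.66%, went the other way. With the stricter call on both changes, those counts fell to 4 genes (0.0335%) and 1 gene (0.00837%). The 4 genes were Plet1, Nes, Lcn2 and Csf2, which encodes the cytokine GM-CSF, and the 1 gene was Slc39a10, which encodes a zinc importer. All these counts used TMM and depend on it. With library totals the log2 fold change in Cadict against Ctrl was 1.40 for Nes, 0.70 for Lcn2 and 0.34 for Plet1. Lcn2 and Plet1 thus fell short of 2-fold there.

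**Figure D1:**
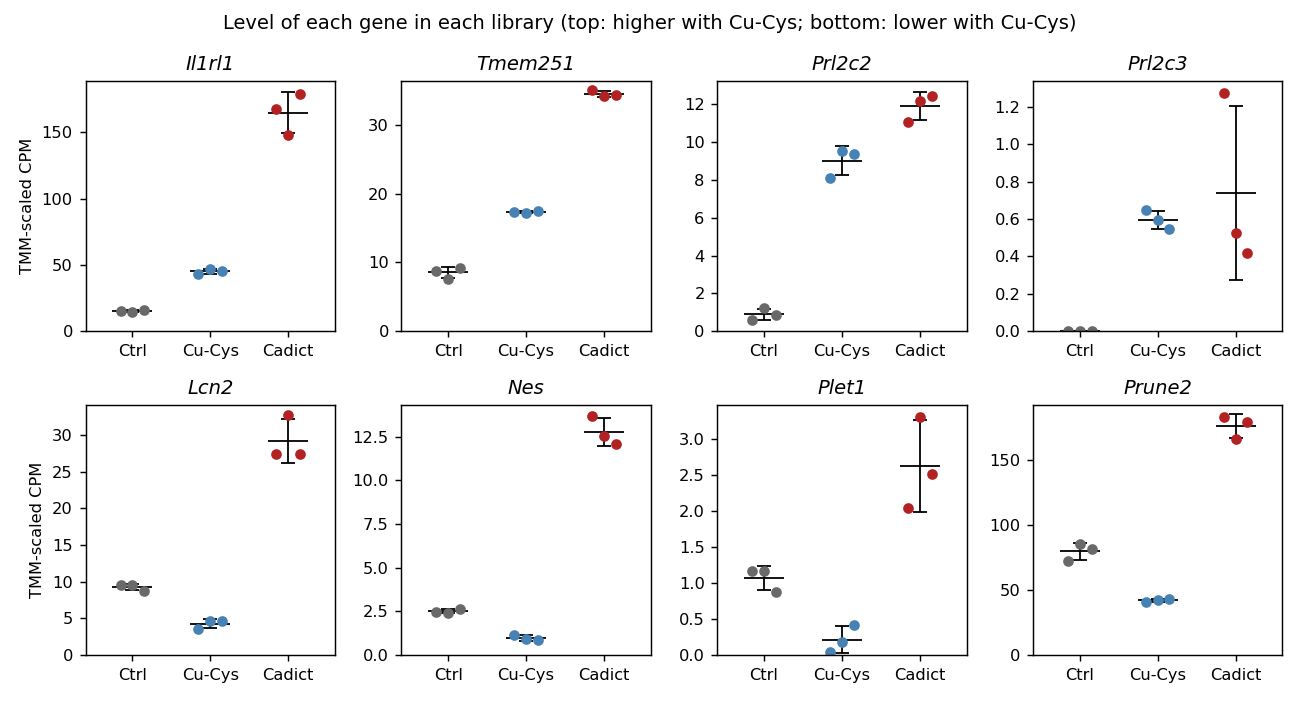
Level of each of the 8 genes in each library, in TMM-scaled CPM on a linear axis that starts at 0. Points are libraries, horizontal lines are group means and bars are SDs (n = 3). In the top row Cu-Cys lies above Ctrl, and in the bottom row Cu-Cys lies below Ctrl and Cadict above it.

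Il1rl1 (chromosome 1, 40429570 to 40465415, plus strand, in the GRCm38 annotation) rose in steps from Ctrl to Cu-Cys to Cadict. Its expected counts were 348, 338 and 368 in Ctrl, 935, 1019 and 1001 in Cu-Cys and 1969, 1699 and 2131 in Cadict. The 3 groups did not overlap. The mean level was 15.2 ± 0.726 CPM in Ctrl, 45.1 ± 1.78 in Cu-Cys and 165 ± 15.6 in Cadict (SD, n = 3). The log2 fold change was 1.57 (SE 0.077) in Cu-Cys against Ctrl, 3.43 (SE 0.076) in Cadict against Ctrl and 1.87 (SE 0.069) in Cadict against Cu-Cys. Per length of transcript, the mean TPM was 10.1, 28.1 and 41.1 in Ctrl, Cu-Cys and Cadict, which keeps the order with a smaller last step. In Cadict against Ctrl the change was 2.48 with library totals and 1.91 on the log2(TPM + 1) scale.

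Il33, the ligand of this receptor, had at most 2 counts in any library and was not tested. Il1rap, the co-receptor, was read at a mean of 31.0 TPM in Ctrl, 32.2 in Cu-Cys and 14.8 in Cadict, and its log2 fold changes of 0.20 (Cu-Cys against Ctrl) and 0.15 (Cadict against Ctrl) did not pass an adjusted p of 0.05. Of the 19 tested genes of a list for IL-33 receptor signalling, without Il1rl1, 5 were higher and 3 were lower in Cu-Cys than in Ctrl in edgeR's quasi-likelihood test (adjusted p of 0.05 or less, the limit used for each list of genes). Over all genes tested, 22.6% were higher and 22.4% lower at that limit, and in Cadict against Ctrl 40.6% were higher and 47.1% lower. These shares are the background for the counts of every list below. The median log2 fold change of the list was -0.025, beside 0.0067 over all genes. The largest changes were in Irak2, a kinase of the receptor complex, which fell (log2 fold change -0.71, SE 0.085), and in Tollip and Myd88, an inhibitor and the main adaptor of the pathway, which rose by 0.38 (SE 0.058) and 0.36 (SE 0.071). With Cadict, 8 genes of the list were higher than in Ctrl and 7 lower, against 40.6% and 47.1% of all genes. The split depended on the scaling, with 1 higher and 16 lower for library totals. From Cu-Cys to Cadict, 8 were higher and 8 lower, against 40.3% and 45.6%, and library totals again gave 1 higher and 16 lower. Between Cu-Cys and Ctrl, library totals gave 3 higher and 5 lower. Of the 7 tested genes in a list of other interleukin-1 family ligands and receptors, which shares Il1rap and Sigirr with the first, 1 was higher and 2 were lower in Cu-Cys. These were Sigirr, an inhibitory receptor (0.30), and the cytokine gene Il18 (-1.82, SE 0.36) and the receptor gene Il1r1 (-0.41, SE 0.079). Cadict left 3 genes of this list higher than Ctrl and 2 lower, or 1 higher and 5 lower with library totals, and Sigirr did not pass in Cu-Cys with library totals.

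Tmem251 (chromosome 12, 102743762 to 102747561, plus strand) showed the same order as Il1rl1 with smaller steps. Its expected counts were 203, 176 and 212 in Ctrl, 375, 376 and 384 in Cu-Cys and 412, 392 and 409 in Cadict. The raw counts of Cu-Cys and Cadict lay close together, and the gap between them opened with the TMM scaling. The mean was 8.55 ± 0.837 CPM in Ctrl, 17.3 ± 0.162 in Cu-Cys and 34.5 ± 0.445 in Cadict (SD, n = 3), with no overlap. The log2 fold change in Cu-Cys against Ctrl was 1.02 (SE 0.079), just past the limit of 2-fold. It fell short of that limit with library totals (0.95), on the log2(TPM + 1) scale (0.81) and at the lowest with 1 library left out (0.94). In Cadict against Ctrl the log2 fold change was 2.01 (SE 0.078), or 1.06 with library totals and 0.60 on the log2(TPM + 1) scale. In Cadict against Cu-Cys the direction depended on the scaling: the log2 fold change was 0.99 (SE 0.072) with TMM and 0.11 with library totals, while on the log2(TPM + 1) scale it was -0.21, with mean TPM of 50.2 in Cu-Cys and 43.3 in Cadict. On the opposite strand the annotation places Gm20604 and Gm28051 across Tmem251, with 0 shared exonic bases.

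Other genes of mannose-6-phosphate tagging and transport were counted in Cu-Cys against Ctrl. Of 20 tested, 8 were higher and 3 lower, and the median log2 fold change was 0.099. Library totals gave 5 higher and 6 lower. Nagpa, which uncovers the tag, rose by 0.56 (SE 0.068), and Vps26a, part of the retromer coat that returns receptors to the Golgi, rose by 0.42 (SE 0.058). Sort1, which encodes the sorting receptor sortilin, fell (-0.67, SE 0.12). Gnptab, the catalytic part of the enzyme that adds the tag, had a log2 fold change of 0.062 that did not pass the limit. With Cadict, 11 genes of the list were higher than in Ctrl and 7 lower, with a median of 0.47 beside -0.13 over all genes. With library totals the balance turned, to 6 higher and 11 lower.

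**Figure D2:**
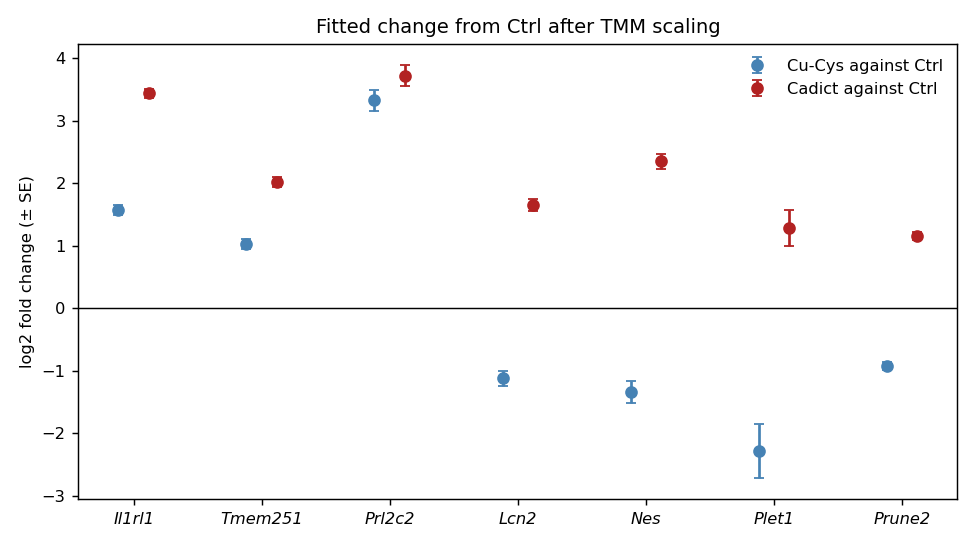
Fitted log2 fold change of 7 genes in Cu-Cys against Ctrl and in Cadict against Ctrl after TMM scaling, with bars for the SE. Both comparisons use the same Ctrl libraries, and Prl2c3 is not drawn because it had 0 counts in Ctrl. Il1rl1, Tmem251 and Prl2c2 lie above 0 in both comparisons, while Lcn2, Nes, Plet1 and Prune2 lie below 0 in Cu-Cys (-2.29 to -0.92) and above 0 in Cadict (1.15 to 2.35).

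The proliferin genes Prl2c2 (chromosome 13, 12996125 to 13005383, minus strand) and Prl2c3 (chromosome 13, 12790816 to 12800079, minus strand) are near-identical copies, so how reads were divided between them is uncertain. Of the 675 coding bases of each, 3 differ, an identity of 99.6%. The windows around these 3 positions are shown in GRCm38 transcript sequence because they are where the coding sequences can be told apart. The differing base is in capitals, and positions count from 1 at the A of the start codon. The first difference is T14C.
Prl2c2, coding bases 1 to 44: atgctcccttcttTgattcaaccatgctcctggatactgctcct
Prl2c3, coding bases 1 to 44: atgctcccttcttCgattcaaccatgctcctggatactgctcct
The second difference is C200A.
Prl2c2, coding bases 170 to 230: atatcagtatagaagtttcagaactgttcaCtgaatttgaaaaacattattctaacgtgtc
Prl2c3, coding bases 170 to 230: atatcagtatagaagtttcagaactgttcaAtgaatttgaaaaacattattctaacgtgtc
The third difference is T319G.
Prl2c2, coding bases 289 to 349: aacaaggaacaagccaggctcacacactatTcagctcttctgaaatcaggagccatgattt
Prl2c3, coding bases 289 to 349: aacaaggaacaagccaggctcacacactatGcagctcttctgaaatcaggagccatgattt

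Of the 626 stretches of 50 bases in the coding sequence, 114, or 18.2%, hold a differing position. Over the whole annotated transcripts, 83.3% of the 50-base stretches of Prl2c2 also occur in another gene, 71.5% in Prl2c3 and 22.2% in the related Prl2c5. For Prl2c3 the share that occurs in another gene is 60.0%. The expected counts of both genes were whole numbers in Ctrl and fractions in the other groups.

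Prl2c2 lay far above Ctrl with either treatment. It had 14, 28 and 20 counts in Ctrl, 176, 209 and 206 in Cu-Cys and 130, 140 and 148 in Cadict. The mean was 0.897 ± 0.304 CPM in Ctrl, 9.02 ± 0.786 in Cu-Cys and 11.9 ± 0.741 in Cadict (SD, n = 3). Its fitted log2 fold change was 3.32 (SE 0.17) in Cu-Cys and 3.72 (SE 0.17) in Cadict, each against Ctrl, the latter 2.77 with library totals and 2.15 on the log2(TPM + 1) scale. In Cadict against Cu-Cys it was 0.40 (SE 0.12) with TMM, but it turned to -0.49 with library totals and to -0.75 on the log2(TPM + 1) scale, where the mean TPM was 33.0 in Cu-Cys and 19.3 in Cadict. Which of the treatments gave the higher Prl2c2 level thus depended on the scaling, whereas both lay above Ctrl under each scaling tried.

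Prl2c3 had 0 counts in the 3 Ctrl libraries. It had 13.98, 13.02 and 12.34 expected counts in Cu-Cys and 15.09, 6.1 and 4.77 in Cadict. These groups overlapped. A floor of 3 counts per Ctrl library was set as an approximate limit of counting error for a count of 0. This floor does not cover how reads were divided between Prl2c2 and Prl2c3. The mean of Prl2c3 was 4.58 times this floor in Cu-Cys and 5.68 times in Cadict. These ratios leave out the spread of the treated libraries. Their SD on the same scale was 0.38 in Cu-Cys and 3.59 in Cadict. The Cadict ratio was 3.62 without Cadict replicate 1 and 2.93 with library totals, while the Cu-Cys ratio was 4.37 with library totals. In Cadict against Cu-Cys the log2 fold change was 0.31 (SE 0.42) and ran from -0.34 without Cadict replicate 1, the library with the highest count, to 0.59 without Cadict replicate 3.

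Since the reads of these genes can be exchanged, the rounded counts of Prl2c2, Prl2c3 and Prl2c5 were also summed. The sum was 14, 28 and 20 in Ctrl, 194, 222 and 220 in Cu-Cys and 146, 146 and 156 in Cadict. Prl2c2 made up 89.0% to 100% of it. The scaled sum was 0.897 ± 0.304 CPM in Ctrl, 9.71 ± 0.661 in Cu-Cys and 12.7 ± 0.347 in Cadict (SD, n = 3), and its log2 fold change was 3.43 (SE 0.16) in Cu-Cys and 3.82 (SE 0.16) in Cadict, each against Ctrl. Summing thus moved the change of Prl2c2 in Cu-Cys against Ctrl from 3.32 to 3.43.

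**Figure D3:**
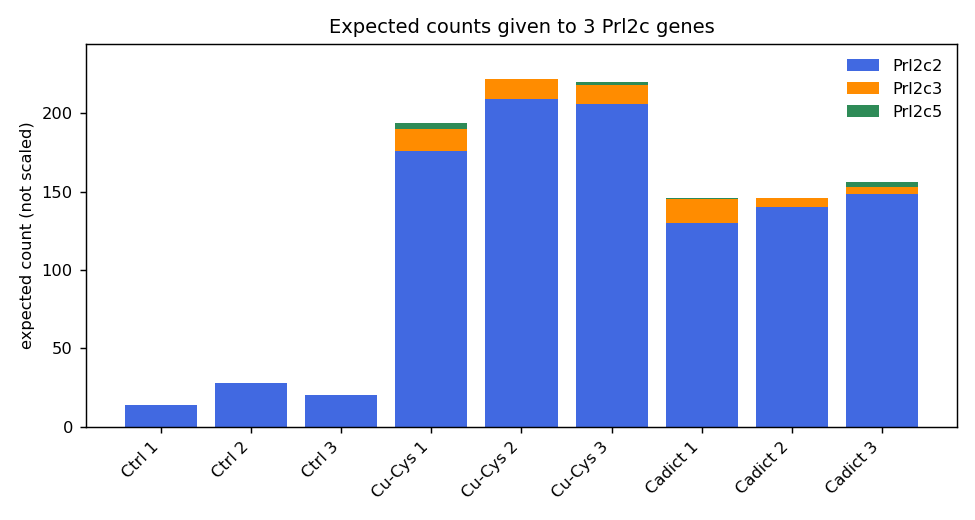
Expected counts of Prl2c2, Prl2c3 and Prl2c5 in each library, stacked, on an axis that starts at 0 and is not scaled for library size. Ctrl libraries hold 14 to 28 counts, all given to Prl2c2, Cu-Cys libraries hold 194 to 222 and Cadict libraries 146 to 156.

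The rest of the prolactin family was scarcely read. Of a list of 26 other family members and receptors, 14 were in the table and 2 passed the filter, Prl3d2 and Igf2r. Igf2r encodes the mannose-6-phosphate receptor, which also binds proliferin, and is in the list of mannose-6-phosphate genes too. Neither passed an adjusted p of 0.05 in Cu-Cys against Ctrl, and both were higher in Cadict than in Ctrl. Prl3d2, a placental lactogen gene, had 0 to 3 counts in Ctrl and Cu-Cys and 9.75, 20.1 and 18.7 in Cadict. The near-identical Prl3d3 was not tested and had 3.25, 17.9 and 7.28 counts in Cadict.

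Proliferin genes are known as genes that growth factors induce, so other genes of that kind were counted. Of 40 tested, 19 were higher and 11 lower in Cu-Cys than in Ctrl. None of the higher ones passed the stricter call, which 0.167% of all genes tested passed as higher. The median log2 fold change was 0.20. Fosl1, which encodes an AP-1 subunit, rose by 0.91 (SE 0.067), whereas the protease genes Mmp9 and Plau fell (-1.36, SE 0.15, and -1.29, SE 0.16). Cadict had 32 of them higher than Ctrl and 7 lower, and the median was 1.86, or 26 higher and 11 lower with library totals.

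Lcn2 (chromosome 2, 32384633 to 32388252, minus strand) was lowered by Cu-Cys and raised by Cadict. Its expected counts were 220, 221 and 201 in Ctrl, 77, 100 and 101 in Cu-Cys and 322, 375 and 327 in Cadict. The groups did not overlap. The mean was 9.28 ± 0.450 CPM in Ctrl, 4.24 ± 0.599 in Cu-Cys and 29.2 ± 3.04 in Cadict (SD, n = 3). Its fitted log2 fold change was -1.13 (SE 0.12) in Cu-Cys against Ctrl, 1.65 (SE 0.097) in Cadict against Ctrl and 2.78 (SE 0.11) in Cadict against Cu-Cys. On TPM the means were 38.0, 15.6 and 47.3 in Ctrl, Cu-Cys and Cadict, so the rise with Cadict was 0.31 on the log2(TPM + 1) scale and 0.70 with library totals.

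A list of acute phase genes and partners of lipocalin 2 fell with Cu-Cys in part. Of 15 tested, 0 were higher and 8 were lower, and 5 of those 8 passed the stricter call. The median log2 fold change was -0.79. Lbp, a plasma protein that binds bacterial lipopolysaccharide, fell by 2.09 on the log2 scale (SE 0.14), and the chemokine genes Ccl20 and Cxcl1 fell by 2.03 (SE 0.42) and 1.51 (SE 0.10). Ccl20 had at most 21 counts in any library. With Cadict, 5 genes of the list were higher than in Ctrl and 6 lower, or 4 and 9 with library totals. The 5 higher with TMM were Cxcl2 (6.61), Il6 (4.75), Saa3 (3.12), Cebpb (1.81) and Cp (0.73). Of these, Cxcl2 had at most 46 counts in any library and Il6 and Saa3 at most 20. With Cadict, Lbp and Cxcl1 were still lower than in Ctrl (-1.49 and -0.92), and Ccl20 did not pass the limit (0.68, SE 0.32, adjusted p = 0.055). Slc22a17, a receptor of lipocalin 2, had at most 1 count in any library, and Lrp2, the other receptor, at most 4.

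**Figure D4:**
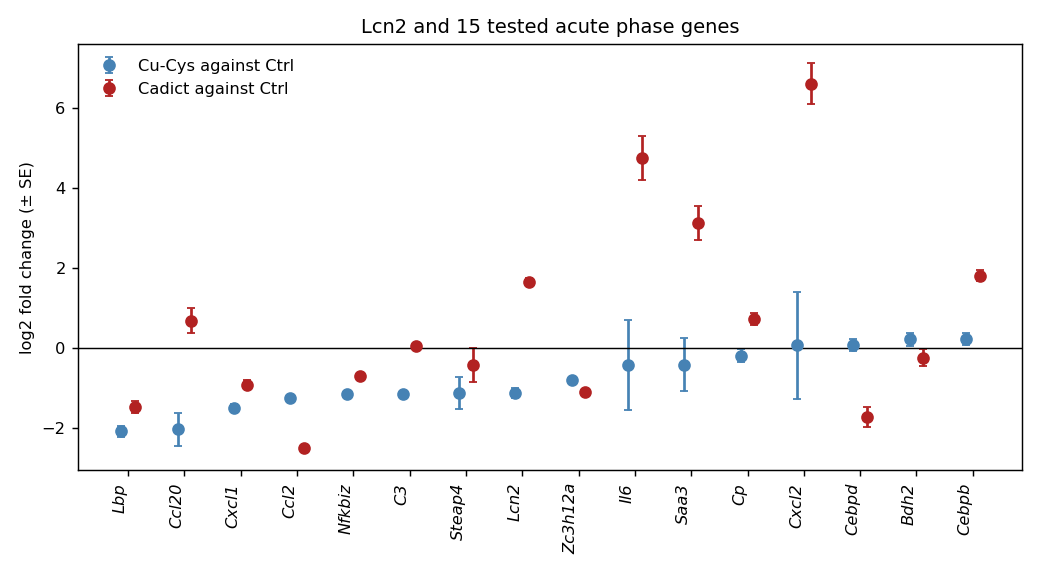
Fitted log2 fold change (± SE) of Lcn2 and of 15 tested acute phase genes and lipocalin partners, ordered by the change in Cu-Cys against Ctrl. Both comparisons use the same Ctrl libraries. Lbp, at -2.09, is lowest in Cu-Cys, and Lcn2 lies at -1.13 in Cu-Cys and 1.65 in Cadict.

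Nes (chromosome 3, 87971078 to 87980451, plus strand) had the largest rise with Cadict of the 4 genes that Cu-Cys lowered. Its expected counts were 57, 56 and 60 in Ctrl, 25, 20 and 19 in Cu-Cys and 161, 144 and 144 in Cadict. All Cu-Cys libraries lay below Ctrl, and all Cadict libraries above it. The mean was 2.50 ± 0.101 CPM in Ctrl, 0.978 ± 0.154 in Cu-Cys and 12.8 ± 0.818 in Cadict (SD, n = 3). Its fitted log2 fold change was -1.35 (SE 0.18) in Cu-Cys against Ctrl, 2.35 (SE 0.12) in Cadict against Ctrl and 3.70 (SE 0.14) in Cadict against Cu-Cys. The level per length was low, with mean TPM of 0.977, 0.350 and 2.02 in Ctrl, Cu-Cys and Cadict.

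Vim, the gene of vimentin, with which nestin forms filaments, was read at mean TPM of 2919 in Ctrl, 2700 in Cu-Cys and 1175 in Cadict, and its log2 fold changes against Ctrl, 0.033 in Cu-Cys and 0.0024 in Cadict, did not pass an adjusted p of 0.05. Of 14 tested genes of intermediate filaments and their partners, 1 was higher and 7 were lower in Cu-Cys, with a median of -0.22. Prph and Des, which encode the filament proteins peripherin and desmin, fell (-1.41, SE 0.44, and -1.17, SE 0.20), and Sox2, a progenitor transcription factor, rose by 0.51 (SE 0.16). Prph had at most 17 counts in any library. Of the same list, 2 genes were higher and 8 lower in Cadict than in Ctrl, or 1 and 12 with library totals. Des and Sox2 were lower there (-1.35 and -1.56).

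Plet1 (chromosome 9, 50494525 to 50505482, plus strand) rested on the fewest reads of the 4. Its expected counts were 27, 27 and 20 in Ctrl, 1, 4 and 9 in Cu-Cys and 24, 38 and 30 in Cadict. The Cu-Cys libraries lay below the others, while the raw counts of Ctrl and Cadict overlapped. After TMM scaling the mean was 1.07 ± 0.171 CPM in Ctrl, 0.213 ± 0.184 in Cu-Cys and 2.62 ± 0.643 in Cadict (SD, n = 3). The log2 fold change was -2.29 (SE 0.44) in Cu-Cys against Ctrl and 3.57 (SE 0.40) in Cadict against Cu-Cys. Without Cu-Cys replicate 3, which held 9 counts, these were -3.15 and 4.43, and without Cu-Cys replicate 1, which held 1 count, they were -1.83 and 3.11. In Cadict against Ctrl the log2 fold change was 1.29 (SE 0.29) with TMM and 0.34 with library totals, whereas on the log2(TPM + 1) scale it was -0.017, with mean TPM of 1.51 in Ctrl and 1.48 in Cadict. The annotation places the antisense gene Plet1os over 261 exonic bases of Plet1, and the sources used here do not state that counting used the strand.

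Of 12 tested genes of trophoblast and epithelial progenitors, 1 was higher and 4 were lower in Cu-Cys, with a median of 0.078. Gata3, a transcription factor of the trophoblast, fell (-1.17, SE 0.25), as did Cdh1, the gene of E-cadherin (-0.64, SE 0.12), which also stands in the list of epithelial markers. Tead4, another trophoblast factor, rose by 0.43 (SE 0.060). Cadict gave 5 higher and 5 lower than Ctrl, or 3 and 7 with library totals. Of the genes just named, Cdh1 was higher (1.39) there, and Gata3 and Tead4 were lower (-0.66 and -0.91).

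Prune2 (chromosome 19, 16956118 to 17223932, plus strand) had the highest counts of the 4 and the smallest changes. Its expected counts were 1679, 1976 and 1867 in Ctrl, 878, 925 and 951 in Cu-Cys and 2161, 1909 and 2143 in Cadict. The Cu-Cys libraries lay apart from the others, while the raw counts of Ctrl and Cadict overlapped. The mean was 79.9 ± 6.60 CPM in Ctrl, 42.1 ± 1.44 in Cu-Cys and 177 ± 9.09 in Cadict (SD, n = 3). The log2 fold change was -0.92 (SE 0.066) in Cu-Cys against Ctrl, short of 2-fold, and 2.07 (SE 0.067) in Cadict against Cu-Cys. In Cadict against Ctrl it was 1.15 (SE 0.063) with TMM and 0.19 with library totals, and on the log2(TPM + 1) scale it was -0.15, with mean TPM of 13.7 in Ctrl and 12.3 in Cadict.

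Of 11 tested genes of the PRUNE and BCH domain family and their partners, 2 were higher and 2 lower in Cu-Cys, with a median of -0.031. Kif5c, a kinesin gene, and Arhgap8, which encodes a protein with a BCH domain, fell (-1.48, SE 0.41, and -0.81, SE 0.23). Kif5c had at most 19 counts in any library. Prune1, the closest relative of Prune2 in the list, had a log2 fold change of -0.031 that did not pass the limit. Cadict gave 6 higher and 5 lower than Ctrl, or 2 and 7 with library totals, which in Cu-Cys against Ctrl gave 1 higher and 3 lower.

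For Lcn2 and Nes, Cadict lay above Ctrl under each scaling tried, at 0.31 to 1.77 for Lcn2 and 0.61 to 2.47 for Nes on the log2 scale. For Plet1 and Prune2 the rise above Ctrl was seen with TMM and with DESeq2 size factors (1.40 and 1.26), was small with library totals and was not seen on TPM. The fall from Ctrl to Cu-Cys kept its direction for all 4 under these scalings.

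**Figure D5:**
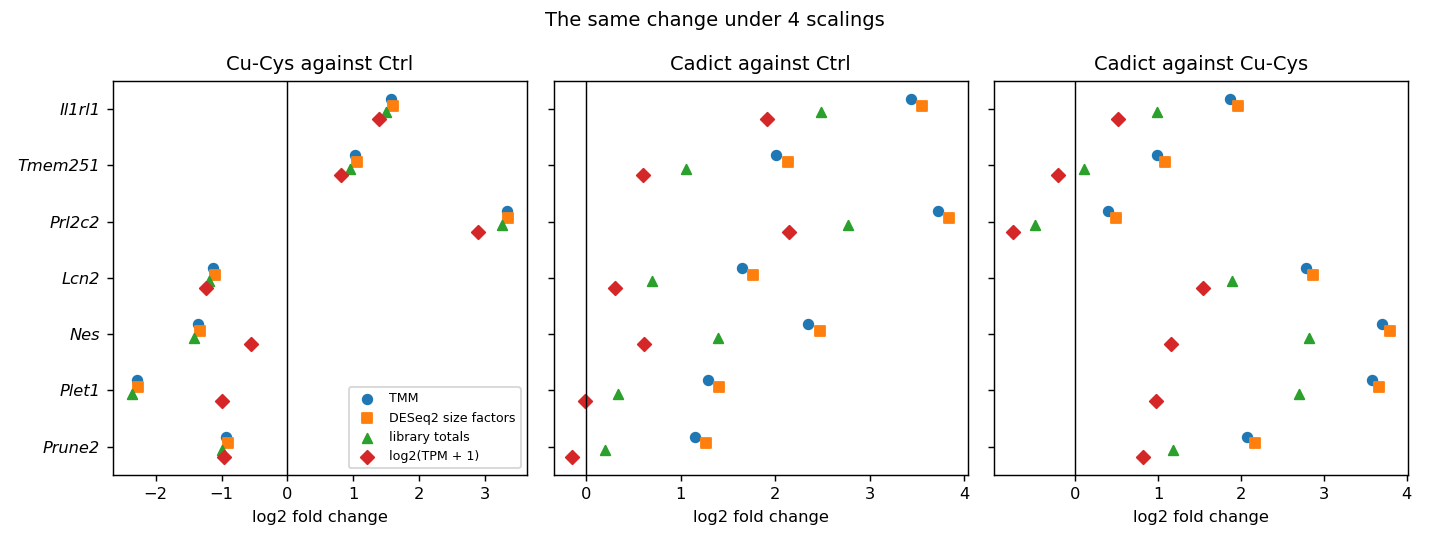
The log2 fold change of 7 genes in the 3 comparisons under 4 scalings: TMM, DESeq2 size factors, library totals and log2(TPM + 1) of the deposited values. In Cu-Cys against Ctrl no point changes side. In Cadict against Ctrl, Plet1 (-0.017) and Prune2 (-0.15) lie below 0 on TPM, and in Cadict against Cu-Cys, Prl2c2 (-0.75) and Tmem251 (-0.21) do. The TPM values are damped for genes of low level, because 1 is added before the log.

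Among the members, Il1rl1 and Tmem251 moved most alike, with a Pearson correlation of 0.995 for log2 CPM across the 9 libraries. Prl2c2 and Prl2c3, which share reads, had a correlation of 0.948. Of the genes that Cu-Cys lowered, Lcn2 and Prune2 had a correlation of 0.989, Nes and Prune2 of 0.988 and Lcn2 and Nes of 0.984, whereas Plet1 and Nes had 0.877. Between the sets the values were lower, from -0.13 for Prl2c3 and Plet1 to 0.670 for Il1rl1 and Nes. The 9 points form 3 groups and share their scaling, so these values mostly describe the order and spacing of 3 group means, and no p is given.

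Of 11212 genes with a mean of at least 1 CPM, the nearest to Il1rl1 across the 9 libraries was Utp18, with a correlation of 0.999, followed by Mthfd1 and Wdr3. Utp18 and Wdr3 encode factors of ribosome assembly, and Mthfd1 a folate enzyme. Mthfd1 was also among the nearest 3 of Tmem251, with the mitochondrial enzyme gene Idh3a (0.997) and the sterol synthesis gene Msmo1. Prl2c2 lay nearest to Enc1 (0.986), Slc39a6 and Coa7, and Prl2c3 to Ddx52 (0.976), Pgam5 and Gclc, the last a gene of glutathione synthesis that Cu-Cys raised. Lcn2 lay nearest to Lvrn (0.994), Cd82 and Carhsp1. Nes lay nearest to Cd34 (0.999), Emp2 and Hoxb9, and Prune2 to Ift140 (0.997), Ccn4 and Akap7. Plet1 lay nearest to the chemokine gene Cxcl10 (0.990) and the cytokine gene Lif. The correlation compares the pattern and not the size of change: Utp18 changed by 0.53 in Cu-Cys and 1.16 in Cadict against Ctrl, where Il1rl1 changed by 1.57 and 3.43.

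The other 16 genes called higher in Cu-Cys than in Ctrl were Hmox1, Akr1c18, Pde8b, Vmn2r79, Tmem179, Mt1, Esd, Slc39a10, Havcr2, Cited1, Mt2, Slc30a1, Apln, Gclc, Ptgs2 and Cd300lb. They include the metallothionein genes Mt1 and Mt2 and the zinc exporter gene Slc30a1, which metals are known to induce, and Hmox1 and Gclc, which oxidants are. Of the 20 genes called, Prl2c2 had the largest fitted change apart from Prl2c3, whose size is known only as a ratio to the Ctrl floor, and Tmem251 had the smallest. Of the other 16, 13 had a log2 fold change above 0 in Cadict against Ctrl and 3 below 0, these being Slc39a10 (-2.18), Apln (-0.63) and Cd300lb (-0.21). Besides Plet1, Nes and Lcn2, the genes that passed the stricter call as lower in Cu-Cys and were higher in Cadict with an adjusted p of 0.05 or less were Csf2, Mmp9, Lamb3, Chd5 and Cxcl10. They include genes of secreted inflammatory factors and of a matrix protease. Their log2 fold changes with TMM ran from -1.82 (Csf2) to -1.05 (Cxcl10) in Cu-Cys and from 0.55 (Lamb3) to 1.69 (Csf2) in Cadict. With library totals the median change over all tested genes in Cadict against Ctrl was -1.08, beside -0.13 with TMM. With library totals Prune2 went from 1.15 to 0.19 in that comparison and Lcn2 from 1.65 to 0.70. Rises as small as those of Lamb3 (0.55), Cxcl10 (0.58), Chd5 (0.62) and Mmp9 (0.72) would turn with a shift of that size. The values of these genes with library totals are not given here. For Mmp9 the mean TPM was 4.23 in Ctrl, 1.49 in Cu-Cys and 2.82 in Cadict.

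The 250 bases before the annotated starts of 7 of the 8 genes were searched on both strands for the AP-1 site TGANTCA, the metal response element in the forms TGCACNC and TGCGCNC, the antioxidant response element TGACNNNGC, the C/EBP-ATF composite TGATGNAA and the heat shock element core GAANNTTC. Sequences and starts are from RefSeq on GRCm38.p6. The set used held no window for Prl2c2, so that gene was not searched. Of 9 starts, 3 held a match. The window before the second start of Il1rl1 held 1 antioxidant response element, at -88 to -80 from the start, a motif found in 10.2% of 32851 such windows. The windows of Prl2c3 and Plet1 each held 1 AP-1 site, at -209 to -203 and at -144 to -138, a motif found in 6.75% of all windows. The forms of the metal response element occur in 10.4% and 12.5% of all windows, the C/EBP-ATF composite in 3.45% and the heat shock core in 6.69%. The 3 windows with a match are printed 5′ to 3′ on the strand of the gene, with the match in capitals. A match of letters is not a measured site.
Il1rl1, second start, chr1:40439379-40439628, plus strand: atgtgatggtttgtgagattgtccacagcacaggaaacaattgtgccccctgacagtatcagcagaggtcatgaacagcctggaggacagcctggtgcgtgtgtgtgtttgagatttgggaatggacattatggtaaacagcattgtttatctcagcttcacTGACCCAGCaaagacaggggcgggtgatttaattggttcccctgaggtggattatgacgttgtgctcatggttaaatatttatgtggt
Prl2c3, chr13:12800080-12800329, minus strand: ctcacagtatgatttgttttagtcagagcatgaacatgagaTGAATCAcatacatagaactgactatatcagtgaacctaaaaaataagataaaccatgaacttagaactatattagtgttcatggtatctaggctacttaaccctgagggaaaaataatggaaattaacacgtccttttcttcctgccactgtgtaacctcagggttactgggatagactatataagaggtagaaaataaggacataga
Plet1, chr9:50494275-50494524, plus strand: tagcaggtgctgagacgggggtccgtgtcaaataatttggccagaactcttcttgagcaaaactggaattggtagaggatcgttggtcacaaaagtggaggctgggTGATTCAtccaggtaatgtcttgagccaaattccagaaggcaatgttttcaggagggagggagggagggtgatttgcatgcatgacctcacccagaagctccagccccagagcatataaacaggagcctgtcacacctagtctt

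The windows of the members differ in base composition, from 35.2% G and C before Prl2c3 to 72.0% before Prune2, where the median of all windows is 52.4%. Prl2c5, which held at most 4 counts in any library, has a window that is 96.0% identical to that of Prl2c3 over 251 aligned columns, and that window held no match to the motifs searched. The table gives 1 value per gene, so expression from the first and the second start of Il1rl1 was not told apart.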

How the data were processed

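The authors deposited, for 16509 genes in 9 libraries, expected counts, FPKM, TPM and a signal value (counts over 1 size factor per library: 1.31 to 1.33 in Ctrl, 1.21 to 1.23 in Cu-Cys, 0.617 to 0.637 in Cadict). The submitters' processing notes name HISAT2 2.1.0, Bowtie2 2.3.4.3, RSEM 1.3.1 and the builds GRCm39 and GRCh38.p13, with no roles. Columns named CC were read as Cu-Cys and those named CCGE as Cadict, the latter inferred from its components. RNA extraction is given as a column kit (labels) or TRIzol (methods), and sequencing as DNA nanoball or Novaseq. The deposited size-factor counts and group averages entered no test.

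Expected counts were rounded and tested in R 4.3.3 with edgeR 4.0.16 (filterByExpr, TMM, 1 quasi-likelihood fit of the 3 groups, Benjamini-Hochberg adjustment over 11949 genes), and the procedure was tested on simulated data. Alternatives used DESeq2 1.42.0 and limma 3.58.1 on log2 of TPM or FPKM. Replicate numbers were not treated as pairs.

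The members, the 12 gene lists and the tests were chosen with earlier results of these data known. Genes named are the members, per member the 3 nearest by correlation, per list the 3 largest changes in Cu-Cys against Ctrl with an adjusted p of 0.05 or less, the genes called higher there and genes sharing sequence. Some genes that this rule selects are not reported here. Il33, Il1rap, Gnptab, Vim, Prune1, Igf2r, Prl3d2, Prl3d3, Slc22a17, Lrp2, Epcam, Krt19, Ptprc, Cd68, Krt5, Krt7, Krt14, Krt15, Krt17, Krt80, Cxcl2, Il6, Saa3, Cebpb, Cp and the genes that fell with Cu-Cys and rose with Cadict were added after their values were seen. Positions and transcripts are from GENCODE M21 on GRCm38, not the build the notes name. Intervals and floors cover counting error only.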

Additional observations from a re-analysis of the deposited data

How the results depend on the processing

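The stricter call (2-fold, adjusted p of 0.001 or less) took 196 genes in Cu-Cys against Ctrl, and the count fell to 119 with at least 10 counts in every library, to 71 with limma on log2(FPKM + 1) and to 117 with limma on log2(TPM + 1). The filter leaves fewer genes to test, and the added 1 damps changes of low genes; other causes were not tested. Leaving out each library in turn gave 143 to 229 calls there, 5592 to 5742 in Cadict against Ctrl (5707 with all libraries) and 4932 to 5058 in Cadict against Cu-Cys (5041). Each member kept its direction in Cu-Cys against Ctrl under the 15 alternatives run on it (16 for Prl2c2); other filters, a pseudocount of 0.1 and fits of 2 groups were run on counts of calls alone. Ratios of Prl2c3 to the Ctrl floor under other settings were chosen after seeing the data. Directions turned in 10 cases. In Cadict against Cu-Cys, Prl2c2 went to -0.49 (library totals), -0.48 (FPKM) and -0.75 (TPM), Prl2c3 to -0.57 (library totals), -0.41 (FPKM), -0.65 (TPM) and, over the libraries left out in turn, -0.34 (without Cadict replicate 1) to 0.59, and Tmem251 to -0.21 (TPM). In Cadict against Ctrl, Plet1 went to -0.017 and Prune2 to -0.15 (TPM). Of the other 353 member values under an alternative, 68 moved by more than 1 SD without turning. Counts of the lists stayed within 1.5 times in 587 of 648 cases. Residuals of same-numbered libraries had correlations of -0.19 to 0.15 over 8551 genes, so the numbers were not taken as pairs, and the replicate number as a block gave 183, 5685 and 5019 calls in the 3 comparisons and turned no member. Depth limits Prl2c3 and Plet1 most, at a mean of 8.65 and 4.67 counts in their lowest treated group.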
